A study of Rattus norvegicus with 63 samples.

Results

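The claudins are the membrane proteins that set what passes between the cells of an epithelium, and their transcripts were followed here in rat kidney after a glucocorticoid. All probe sets with 1 gene symbol starting with Cldn, plus Ocln, were taken, which gave 16 probe sets of 13 genes among the 15923 probe sets of the main array type. A second array type held 7 such probe sets, of Cldn3, Cldn7 and Ocln, among 8799. Cldnd1, a claudin domain containing protein and not a claudin proper, entered through its symbol. Cldn10, Cldn1, Cldn3 and Cldn7 were selected on the differences from untreated kidneys that earlier readings of these arrays had shown. Those differences, and comparisons of the libraries that showed them with other times, are given as a description, with no test.

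Total RNA of rat kidney was hybridised to Affymetrix expression arrays, on which a set of short probes measures a transcript. The treated kidneys had been exposed to methylprednisolone, a synthetic steroid of the glucocorticoid class given by injection, for 1 of 16 durations between 0.25 and 72 h, and the untreated group is that of 0 h. The main type had 3 libraries at each time after injection and 4 at 0 h, and the second had 3 libraries for 2 h, 3 for 6 h and 4 for 0 h. The labels give neither strain, age, dose nor hour of day, they name no untreated kidneys at later hours, and they do not say that numbered samples are separate animals. Elapsed time, handling and the injection can therefore not be told apart, and the p-values rest on a spread among samples that could be technical.

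Signals are intensities that the authors scaled per array. Differences are on a log2 scale, as log2(signal + 7.63) for the main type and log2(signal + 3.56) for the other, with their standard error, and they understate the change of dim probe sets. A probe set was tested with limma where its mean lay above a floor, equal to a signal of 52.3 (main) or 25.3 (second). Of the 16 family probe sets on the main type 10 passed, and those of Cldn3, Cldn16 and Cldn1, both of Cldn11 and 1 of Cldnd1 did not. All 7 passed on the second type. Adjusted p-values are by Benjamini and Hochberg over all probe sets tested, 9520 and 5244. Signals of different probe sets are not comparable as levels of their genes. All 9 proximal tubule markers of a list lay above the floor of the main type, and their summed signal was between 11500 and 17500 in every library of that type. In 6 libraries outside 2 to 4 h (0.25 h replicate 2, 0.5 h replicate 3, 1 h replicate 2, 5 h replicate 2, 7 h replicate 3 and 8 h replicate 1) Fga, a fibrinogen chain made mainly by liver, exceeded a signal of 1000.

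Claudins lie in the tight junction, where they either seal the space between cells or form pores for selected ions. Each nephron segment has its own set. Cldn2 forms pores for cations and water in the proximal tubule, Cldn10 has splice isoforms that form cation pores in the thick ascending limb and anion pores in the proximal tubule, and Cldn16 and Cldn19 together serve magnesium and calcium reabsorption in the thick ascending limb. Cldn3, Cldn4 and Cldn7 belong mainly to the more distal tubule and collecting duct, and Cldn5 is the claudin of endothelium.

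The stretches of 250 bases before the RefSeq transcript starts (assembly GRCr8) are shown for Cldn10 and Cldn3, the members furthest below and furthest above untreated kidneys, and for Cldn16, the only family gene with a searched motif. They lie at chr15:102269608-102269857 on the plus strand for Cldn10, chr12:27346548-27346797 on the minus strand for Cldn3 and chr11:87814397-87814646 on the minus strand for Cldn16. Capitals mark AGAACA, a half-site of the glucocorticoid receptor.
Cldn10: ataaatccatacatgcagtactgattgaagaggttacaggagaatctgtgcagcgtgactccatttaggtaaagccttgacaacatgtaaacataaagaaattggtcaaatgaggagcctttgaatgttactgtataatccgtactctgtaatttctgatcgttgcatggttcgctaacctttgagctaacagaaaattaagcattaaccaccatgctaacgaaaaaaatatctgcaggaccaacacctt
Cldn3: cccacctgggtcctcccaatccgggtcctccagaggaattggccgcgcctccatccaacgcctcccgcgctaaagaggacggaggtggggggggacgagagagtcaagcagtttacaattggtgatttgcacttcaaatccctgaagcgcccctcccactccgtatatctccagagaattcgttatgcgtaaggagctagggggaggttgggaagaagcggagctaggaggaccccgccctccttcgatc
Cldn16: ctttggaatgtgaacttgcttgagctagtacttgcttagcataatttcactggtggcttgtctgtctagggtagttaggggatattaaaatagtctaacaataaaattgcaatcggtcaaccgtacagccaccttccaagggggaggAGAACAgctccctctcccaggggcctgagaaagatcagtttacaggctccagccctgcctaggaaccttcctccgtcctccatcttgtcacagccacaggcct
The stretch of Cldn10 had 38% G and C and 5 CG pairs, that of Cldn3 59.2% and 15, and that of Cldn16 49.2% and 3, beside medians of 51.2% and 5 over 33469 promoters. Promoters were in the RefSeq table for 11 of the 13 genes, all but Cldn2 and Cldn4. On either strand, AGAACA was found in 1 of the 11, 103 bases before the start of Cldn16, and in 17.5% of all promoters. The full response element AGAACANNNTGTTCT, which contains the half-site, was in 0 of the 11 and in 0.012% of all. The AP-1 site TGANTCA and the TATA box TATAAA were also in 0 of the 11, and in 6.34% and 12.9% of all promoters. A match of letters is a description and shows no binding, and these windows hold none of the more distant sequence. A single start per family gene was searched, so other transcript starts, such as those of isoforms, are not covered.

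Cldn10 was the family member furthest below untreated kidneys, at 5 to 8 h, and its mean signal at 18 h was 98.6% of the untreated mean. The 15 libraries of 5 to 8 h had signals from 185 to 407 with a median of 297, against 1010, 802, 871 and 767 in the 4 untreated libraries. No library of the window reached the untreated range. The difference was -1.48 ± 0.13 on the log2 scale, or 2.8-fold lower. In bulk RNA, fewer cells of a type and less RNA per cell cannot be told apart.

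By time, the mean signal of Cldn10 was 862 ± 107 at 0 h (SD, n = 4). It was between 746 and 840 at the 4 times from 0.25 to 1 h and 691 ± 39.6 at 2 h (SD, n = 3). The first time at which every library lay below every untreated one was 2 h, with signals of 663, 737 and 675. At 4 h the libraries had 464, 416 and 418, and at 5 h 369, 392 and 407, so these neighbouring times did not overlap, although 416 and 407 lie close. The means of 5.5, 6, 7 and 8 h were 305, 281, 273 and 291, and their libraries overlapped, so the order among them is within their spread. The lowest mean, 273 ± 90.6 at 7 h, was 31.7% of the untreated mean.

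At 12 h the libraries of Cldn10 were spread widely, with 447, 877 and 645. At 18 h they lay together at 829, 883 and 839. The means of 30, 48 and 72 h were 800, 776 and 823, and these late times overlapped each other and the untreated libraries. Kidneys at 30 h and at 6 h, which are 24 hours apart, had 707, 750 and 943 at 30 h, against 292, 232 and 319 at 6 h, with no overlap.

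**Figure D1:**
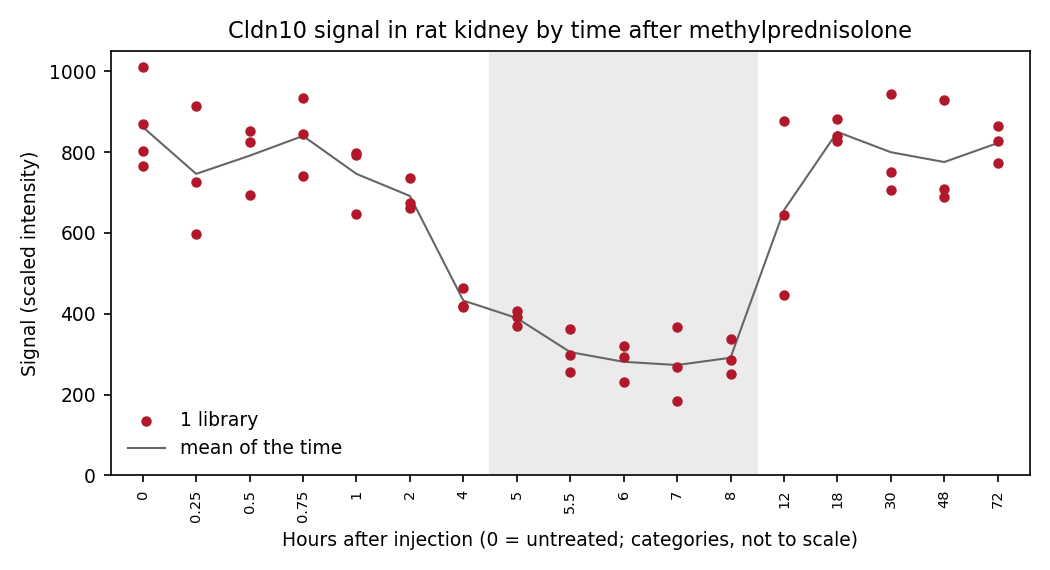
Signal of Cldn10 (vertical axis, scaled intensity) in each of 52 libraries of the main array type by hours after injection (horizontal axis, categories not to scale, 0 = untreated). Points are libraries, the line joins the means of the times, and the grey band covers 5 to 8 h, where all 15 libraries lie at or below 407 and all 4 untreated ones at or above 767.

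At 2 to 4 h against 0.25 to 1 h the difference of Cldn10 was -0.50 ± 0.12 on the log2 scale, with 6 of 6 libraries below the mean of the earlier window. At 30 to 72 h its signals ran from 688 to 943 with a median of 773, against 185 to 407 at 5 to 8 h, a difference of 1.38 ± 0.10 with no overlap. At 30 to 72 h against 12 to 18 h the difference was 0.11 ± 0.12 (limma, adjusted p = 0.893). Which splice isoforms of the gene the probe set reads is not known from the sources used here.

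Cldn19, the partner of Cldn16 in the thick ascending limb, fell at 5 to 8 h. Its 15 libraries had signals from 92.4 to 222 with a median of 131, against 249, 220, 227 and 166 in untreated kidneys. In 14 of 15 libraries the value lay below the untreated mean, and the groups overlapped, 6 h replicate 1 at 222 being the highest of the window. The difference was -0.61 ± 0.17 (limma, adjusted p = 0.0176). It was no longer past the threshold without 0 h replicate 1, where the adjusted p was 0.1, nor without 0 h replicate 2 or 3.

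Cldn19 at 30 to 72 h had signals from 186 to 359 with a median of 233, against 92.4 to 222 at 5 to 8 h. All 9 late libraries lay above the mean of the earlier window. The rise was 0.82 ± 0.13 (limma, adjusted p = 5.87e-06), and it stayed past the threshold without any single library, with a highest adjusted p of 4.94e-05. Against untreated kidneys the late difference was 0.22 ± 0.19 (adjusted p = 0.933).

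Cldn16 lay under the floor and was fitted without the filter. Its signals at 5 to 8 h ran from 4.43 to 72.7 with a median of 43.9, against 93.3, 68.6, 65 and 52 in untreated kidneys. The groups overlapped, and the difference was -0.79 ± 0.36 (limma without the filter, adjusted p = 0.25). Its signals at 30 to 72 h were 50.6 to 95.9, a rise of 0.84 ± 0.27 over 5 to 8 h (adjusted p = 0.0291). The lowest values, 4.6 in 5 h replicate 2 and 4.43 in 7 h replicate 3, were in libraries of high Fga signal. Without those of high Fga signal the difference was 0.50 and the adjusted p 0.0989, a choice made after seeing the data, and leaving out any one of 7 libraries also ended the call (5 h replicate 2, 6 h replicate 3, 7 h replicate 3, 30 h replicate 2, 48 h replicates 2 and 3, 72 h replicate 3), with an adjusted p of up to 0.0657.

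Other markers of the thick ascending limb were measured beside these claudins. Of 7 on the list 4 were on the array, and their summed signal ran from 1640 to 4610 with a median of 3530 at 5 to 8 h, against 3780 to 4140 with a median of 3900 in untreated kidneys. None of the 4 passed the test at 5 to 8 h, beside 9.71% of all probe sets tested. Their median difference was -0.45, beside -0.03 for all. Umod, the urinary glycoprotein that defines the segment, differed by -0.22 ± 0.16 (limma, adjusted p = 0.438). At 2 to 4 h against untreated kidneys 1 of the 4 was lower and 0 were higher, beside 4.8% and 5.17% of all. Comparing 30 to 72 h with 5 to 8 h, Umod rose by 0.58 ± 0.12 (adjusted p = 0.000281) and Slc12a1, the salt cotransporter of the segment, by 0.35 ± 0.13 (adjusted p = 0.0439), and the other 2 did not pass, beside 13.8% of all probe sets that rose. The part of this shift in the values of Cldn10, Cldn16 and Cldn19 was not tested.

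Cldn2, the cation pore of the proximal tubule, was the member that rose at 5 to 8 h among those tested against untreated kidneys. Its libraries had signals from 607 to 1060 with a median of 805, against 533, 679, 666 and 700 without treatment. The groups overlapped, with 13 of 15 libraries above the untreated mean. The rise was 0.32 ± 0.10 (limma, adjusted p = 0.0282). The adjusted p was 0.221 without 0 h replicate 1, the lowest at 533, and was also above 0.05 without 0 h replicate 3. The call was lost with quantile normalization too (0.0582) and with the contrasted times alone in the fit (0.122).

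Cldn2 at 30 to 72 h had 603 to 839, a fall of 0.24 ± 0.07 on the log2 scale from 5 to 8 h (limma, adjusted p = 0.0117), with 8 of 9 late libraries below the mean of the earlier window. Without the arrays that carry the letter b or c in their titles the adjusted p was 0.0636. Of the 9 proximal tubule markers 1 rose and 1 fell at 5 to 8 h against untreated kidneys, beside 4.98% and 4.73% of all probe sets tested, with a median difference of -0.10.

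Cldn3, a barrier claudin of the distal nephron, had the highest values relative to untreated kidneys. At 4 h its signals were 216, 168 and 242, against 33.9, 14.6, 20.2 and 11.2 in untreated kidneys. All 4 h libraries lay far above all untreated ones, while the 2 h libraries disagreed, with 95.4, 236 and 9.45. For 2 to 4 h the difference was 2.27 ± 0.44 and for 5 to 8 h 1.49 ± 0.39, both fitted without the filter.

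The signal of Cldn3 was between 10.7 and 23.6 in all libraries of 0.25 to 1 h but 1 h replicate 1, at 77.3. It was between 17.7 and 169 at 5 to 8 h, and between 16.6 and 23.9 in the 6 libraries of 12 and 18 h, inside the untreated range. At 72 h the libraries had 24.8, 47.2 and 65.4. Its difference at 2 to 4 h against 0.25 to 1 h was 2.15 ± 0.34 on the log2 scale without the filter, and at 30 to 72 h against 5 to 8 h it was -1.14 ± 0.29.

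Some hepatocyte markers were also high at 2 to 4 h. Of 3 that were tested 2 were higher than in untreated kidneys and 0 lower, beside 5.17% and 4.8% of all probe sets tested. The summed signal of the 6 on the array, of 6 listed, was between 2040 and 3470 in the 6 libraries of 2 to 4 h, against 171 to 306 in untreated kidneys, and none was at 0. Alb, the defining marker, had 793 in 2 h replicate 2, beside a Cldn3 signal of 236, and a median of 39.4 over all libraries. At 4 h, where Cldn3 was 168 to 242, Alb was 37.9, 14.3 and 42.9 and Fga 2150, 1860 and 2040. In untreated kidneys Alb was 51, 29.5, 38.1 and 30.2 and Fga 68.5, 11.4, 50.4 and 36.6. At 2 h Fga was 2140, 523 and 2510, beside Cldn3 signals of 95.4, 236 and 9.45. The part of these markers in the values of Cldn3 was not tested. Without 2 h replicate 2 the difference of Cldn3 from 0.25 to 1 h was 1.72 on the log2 scale.

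On the second array type, Cldn3 was higher after injection in both of its probe sets. M74067_at had signals of 81.2, 265 and 37.2 at 2 h and of 99.8, 59.2 and 66 at 6 h, against 19.4, 8.49, 10.4 and 10.1 in untreated kidneys. AJ011656cds_s_at had 187, 823 and 151 at 2 h, 235, 250 and 207 at 6 h, and 130, 112, 102 and 117 in untreated kidneys. In both probe sets no treated library overlapped the untreated ones, and 2 h replicate 2 was the highest. The differences were 2.69 ± 0.51 at 2 h and 2.34 ± 0.51 at 6 h for the first, and 1.29 ± 0.45 and 0.98 ± 0.45 for the second. Between 6 h and 2 h they were -0.35 ± 0.54 and -0.31 ± 0.48. Alb was 11 in 2 h replicate 2 on this array type, and 10.1 to 25.7 in all 10 libraries. Fga was 2310, 199 and 3020 at 2 h and 1040, 72.9 and 93.8 at 6 h. In untreated kidneys Fga was 168, 49.4, 74.6 and 71.4. The part of both in the Cldn3 values of this type was not tested. Sample numbers recur on both array types, and whether they stand for the same RNA is not stated.

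Cldn7, another claudin of the distal tubule and collecting duct, was above untreated kidneys at 2 to 4 h and at several other times on the main array type. On the second it was so at 2 and 6 h. On the main type the libraries of 2 h had 85.6, 86.8 and 84.3, those of 4 h had 102, 87.7 and 91.1, and the untreated ones 63.4, 59.7, 42.8 and 44.6. The groups did not overlap, and the difference was 0.70 ± 0.19. Earlier libraries were more spread, from 30.5 to 119 at 0.25 to 1 h, and the difference of 2 to 4 h from them was 0.40 ± 0.15. Those of 0.25 h alone, at 80.2 to 119, lay above every untreated one, and their mean of 100 was the highest of any time. The libraries of 6, 18 and 48 h also lay above every untreated one (77.4 to 91.7, 77.9 to 83.4 and 73.3 to 81). At the remaining times they overlapped the untreated range. All 9 libraries of 30 to 72 h were above the untreated mean, between 60.4 and 81, with overlap.

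On the second type, the Cldn7 probe set AJ011811_at had 136, 132 and 112 at 2 h, 109, 120 and 110 at 6 h, and 91.9, 91.8, 83.1 and 66.2 in untreated kidneys. Its companion AJ011811_g_at had 123, 162 and 73.3 at 2 h, 96.4, 84.2 and 91.7 at 6 h, and 70.4, 51.6, 64.9 and 53.3 without treatment. All treated libraries lay above all untreated ones in both. The differences at 2 h were 0.59 ± 0.19 and 0.89 ± 0.25. Both probe sets come from the same source sequence and are no independent measurements. Cldn4, which shares the distal segments and is tested on the main type, had 54.2 to 138 at 2 to 4 h and 14.4 to 138 at 0.25 to 1 h, a difference of 0.77 ± 0.27 (adjusted p = 0.0589). No other contrast of Cldn4 had an adjusted p below that. By time, its libraries had 117 to 138 at 2 h and 54.2 to 67.4 at 4 h, against 46.6 to 85.6 in untreated kidneys. The difference of 2 to 4 h from untreated kidneys was 0.49 ± 0.35 (limma, adjusted p = 0.41).

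**Figure D2:**
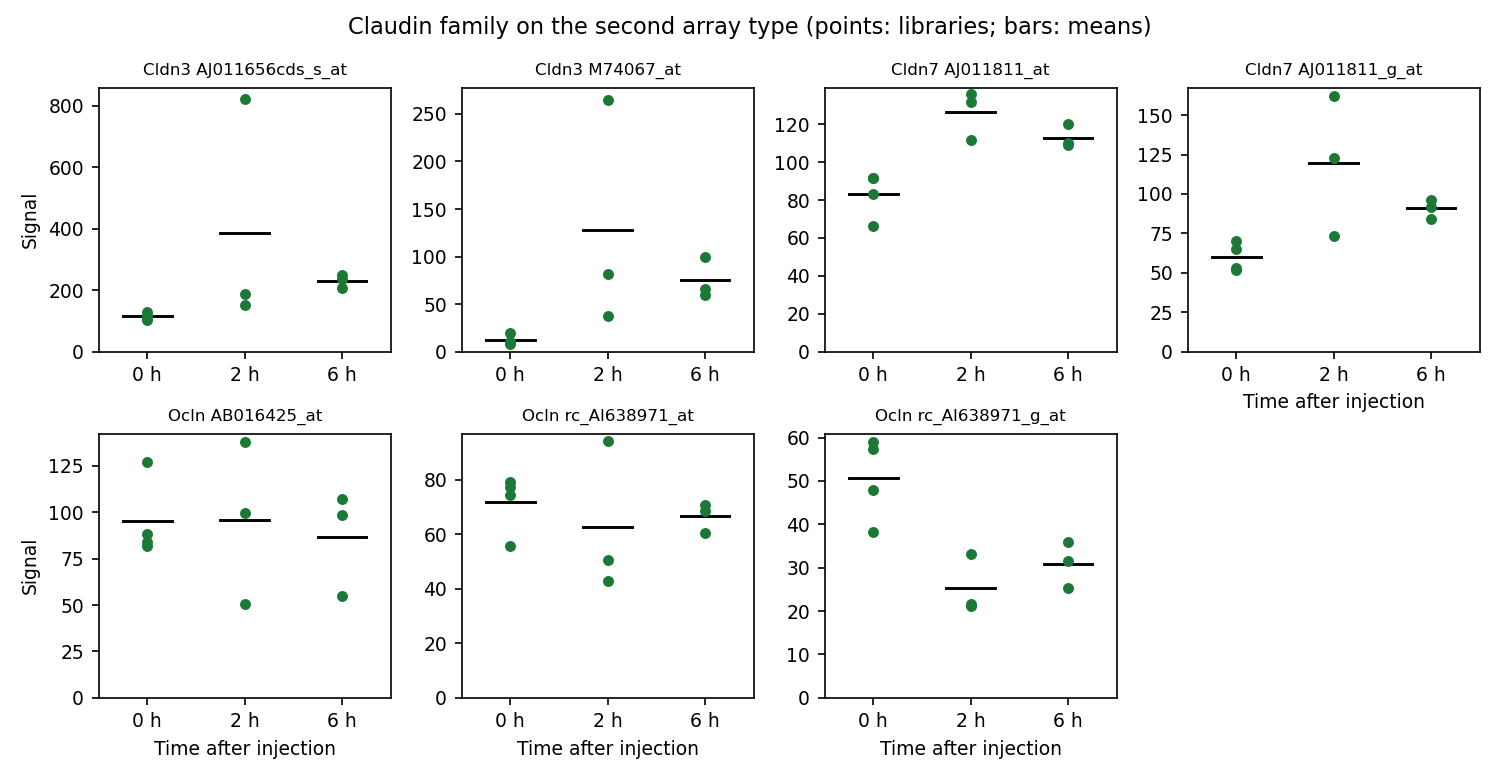
Signals (vertical axes, scaled intensity) of the 7 family probe sets of the second array type at 0 h (untreated, 4 libraries), 2 h and 6 h (3 libraries each); points are libraries and bars are means. Both Cldn3 and both Cldn7 probe sets have every treated library above every untreated one, and 1 of 3 Ocln probe sets has every treated library below them. Cldn3 and Cldn7 were selected on their differences from untreated kidneys, and the share of all probe sets that separate in this way was not counted.

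Occludin, encoded by Ocln, is a tight junction membrane protein of another family that lies beside the claudins. Its brighter probe set had 244, 268 and 176 at 2 h and 198, 133 and 173 at 4 h, against 258, 243, 282 and 268 in untreated kidneys. The 4 h libraries were all below the untreated range, while those of 2 h overlapped it. At 2 to 4 h Ocln fell by 0.43 ± 0.12 on the log2 scale (limma, adjusted p = 0.0195), a call that did not hold without 2 h replicate 3 (adjusted p = 0.0828), nor without 0 h replicate 3 or 4 or 4 h replicate 2, nor with the contrasted times alone in the fit (0.0668). Against 0.25 to 1 h it fell by 0.40 ± 0.09 (adjusted p = 0.00368), and this held without any single library.

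At 5 to 8 h Ocln had signals from 181 to 243, and all 15 libraries lay below the untreated mean, but the difference of -0.30 ± 0.11 did not pass (limma, adjusted p = 0.0672). Late signals, at 30 to 72 h, were 239 to 298, a rise of 0.30 ± 0.08 over 5 to 8 h (adjusted p = 0.0039). The dimmer Ocln probe set had 40.1, 43.6 and 43.5 at 4 h and 83.4, 152 and 14.7 at 2 h, against 114, 81.7, 69.8 and 81.2 in untreated kidneys. It fell by 0.80 ± 0.22 at 2 to 4 h against 0.25 to 1 h (adjusted p = 0.014), but by 0.39 without 2 h replicate 3 (adjusted p = 0.158), and the adjusted p was 0.0687 with the contrasted times alone.

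Of the 3 Ocln probe sets on the second type 1 passed. The signals of rc_AI638971_g_at were 21.7, 21.2 and 33.2 at 2 h, against 48, 38.2, 57.4 and 59 in untreated kidneys. The groups did not overlap, and the difference was -0.91 ± 0.25 (limma, adjusted p = 0.041). It was -0.84 ± 0.27 with the sample number as a block (adjusted p = 0.0876), and 8 of 10 single libraries left out ended the call, with an adjusted p of up to 0.112 without 0 h replicate 3. The adjusted p was 0.064 with no filter, 0.0513 with quantile normalization, 0.0521 with median centring and 0.0725 with the contrasted times alone. The probe set from the same source sequence, rc_AI638971_at, differed by -0.25 ± 0.26 and AB016425_at by -0.07 ± 0.33 (adjusted p = 0.551 and 0.91), so the 3 probe sets disagreed.

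Cldn5, the claudin of endothelium, fell at 5 to 8 h. Its signals ran from 52.4 to 113 with a median of 93.5, against 126, 128, 130 and 104 in untreated kidneys. Every one of the 15 libraries was below the untreated mean, with overlap only at the lowest untreated library. The difference was -0.50 ± 0.16 (limma, adjusted p = 0.0359), and it lost its call without 0 h replicate 3 (adjusted p = 0.121), as well as without 0 h replicate 1 or 2, 5 h replicate 2 or 6 h replicate 3. The adjusted p was also above the threshold with no filter (0.0573), median centring (0.0622), once arrays lettered b or c were left out (0.069) and with the contrasted times alone (0.0856). The signals at 30 to 72 h were 91.2 to 158, a rise of 0.46 ± 0.12 over 5 to 8 h (adjusted p = 0.00367), which did not hold once arrays lettered b or c were left out (0.37, adjusted p = 0.0972).

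Of 10 endothelial markers 8 were on the array and 7 were tested. At 2 to 4 h against untreated kidneys 3 of the 7 fell (Kdr, Tie1 and Egfl7) and 1 rose (Esam), beside 4.8% and 5.17% of all probe sets tested. For 5 to 8 h 2 of the 7 fell (Kdr and Tie1) and 0 rose, beside 4.73% and 4.98% of all, with a summed signal of 1170 to 1940 against 1540 to 1960 in untreated kidneys. Of 5 podocyte markers 4 were on the array and tested, and 3 of them fell at 2 to 4 h (Synpo, Wt1 and Podxl) and 1 at 5 to 8 h (Synpo), beside the same shares. Their summed signal was 498 to 672 at 2 to 4 h and 428 to 734 at 5 to 8 h, against 788 to 1090 in untreated kidneys. None of the tested markers was at 0, and their part in the values of Cldn5 was not tested.

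**Figure D3:**
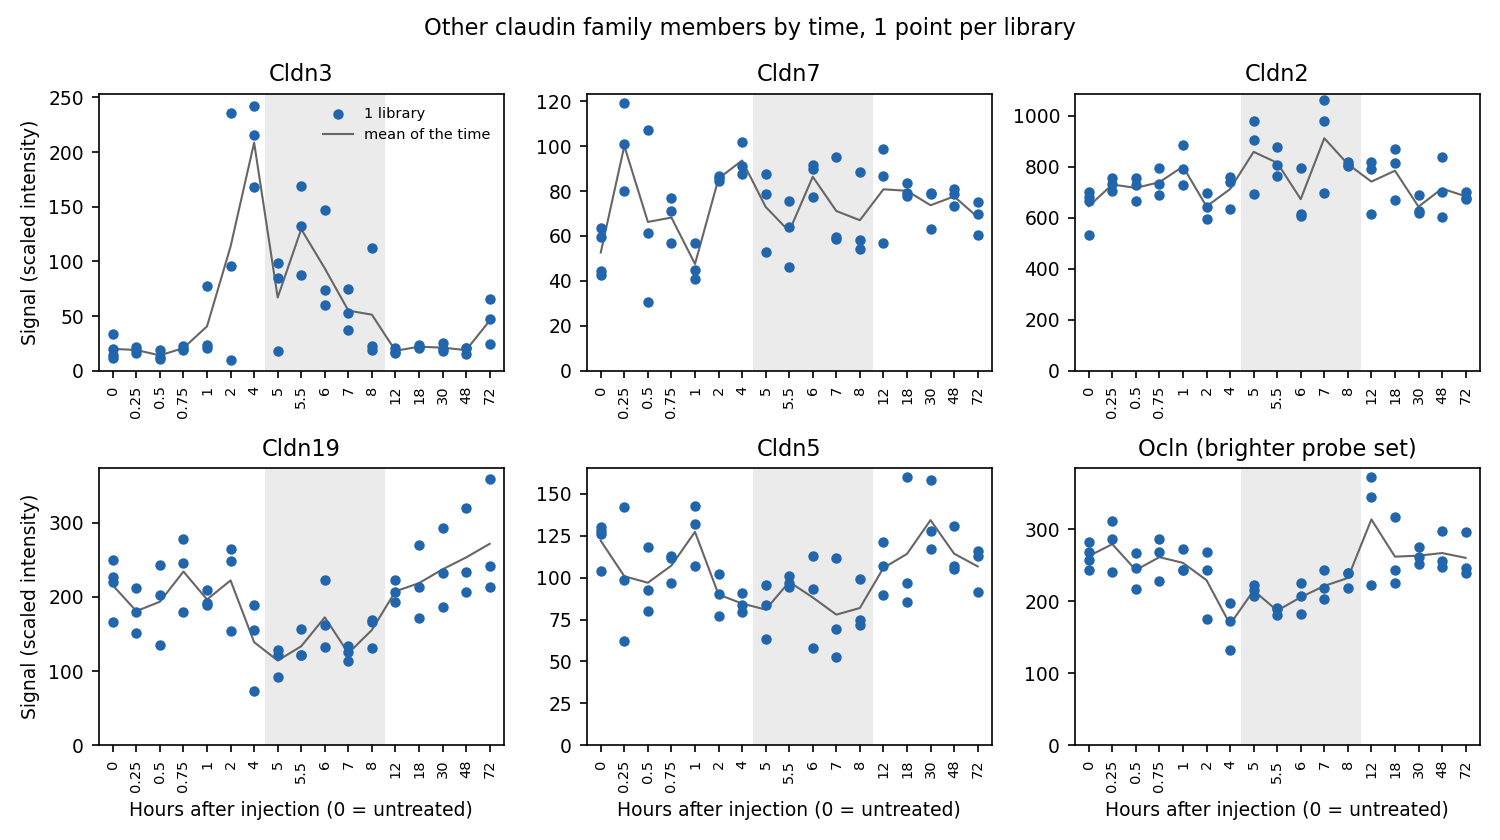
Signals (vertical axes, scaled intensity, each starting at 0) of Cldn3, Cldn7, Cldn2, Cldn19, Cldn5 and the brighter Ocln probe set in the 52 libraries of the main array type by hours after injection (horizontal axes, categories). Points are libraries, lines join the means of the times and the grey band covers 5 to 8 h: Cldn3 is highest at 4 h, with 168 to 242, and Cldn19 lies between 92.4 and 222 in the band.

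The remaining members gave no call against untreated kidneys. Cldn12, a widely expressed claudin, had 153 to 392 at 5 to 8 h and 189 to 240 without treatment, and none of its contrasts passed. Cldnd1 had 241 to 376 at 5 to 8 h and 233 to 327 without treatment in its brighter probe set. Its signals at 30 to 72 h were 181 to 411, a fall of 0.33 ± 0.11 on the log2 scale from 5 to 8 h (limma, adjusted p = 0.0269), which did not hold without 30 h replicate 2 (adjusted p = 0.0956), 48 h replicate 1 or 2, or 72 h replicate 3, nor once arrays lettered b or c were left out (adjusted p = 0.158).

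Cldn1, a barrier claudin that in kidney marks the lining of the glomerular capsule, lay under the floor. Its signals were 10.2 to 58.1 at 2 to 4 h and 27 to 74.3 without treatment, a difference of -0.41 ± 0.32, and 18.9 to 94.9 at 5 to 8 h, a difference of 0.19 ± 0.28. At 2 to 4 h against 0.25 to 1 h it differed by -0.52 ± 0.25 without the filter. Cldn11, known from myelin and testis, had signals from 4.03 to 57.4 over both of its probe sets, and no contrast passed without the filter. The dimmer Cldnd1 probe set did not exceed 18.3.

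Over the family, 10 probe sets were in the fit of the main type, 8 of them of genes not selected on their differences from untreated kidneys. At 0.25 to 1 h 0 of the 8 passed against untreated kidneys, beside 0.662% of all tested probe sets, and at an unadjusted p under 0.05 it was 1 of 8, Cldn2, beside 6.66% of all. For 2 to 4 h 1 of the 8 passed, Ocln, which was lower, beside 9.97% of all, 5.17% higher and 4.8% lower. For 5 to 8 h 3 of the 8 passed (Cldn2 higher, and Cldn5 and Cldn19 lower), beside 9.71% of all, 4.98% higher and 4.73% lower. For 12 to 18 h 0 of the 8 passed, beside 0.389% of all, and unadjusted 1 of 8, Cldn2, beside 5.71% of all. For 30 to 72 h 0 of the 8 passed, beside 0% of all, and unadjusted 0 of 8, beside 5.43% of all.

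Without the untreated libraries, 2 of the 8 passed at 2 to 4 h against 0.25 to 1 h, both of Ocln and both lower, beside 11.7% of all and 6.19% of all lower. Between 30 to 72 h and 5 to 8 h 5 of the 8 passed, beside 26.2% of all, 13.8% higher and 12.5% lower. Cldn5, Cldn19 and Ocln were higher late, and Cldn2 and Cldnd1 lower. Between 30 to 72 h and 12 to 18 h 0 of the 8 passed, beside 0.914% of all, and unadjusted 0 of 8, beside 8.92% of all. The median difference of the 8 was -0.24 in the first of these, 0.08 in the second and 0.04 in the last, beside -0.04, 0.03 and 0.01 for all probe sets tested. Over the differences of all 16 times from 0 h, the F test passed for 2 of the 8, Cldn19 (limma, adjusted p = 0.00223) and Ocln (adjusted p = 0.00364), beside 16.1% of all.

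On the second type only the 3 Ocln probe sets are of a gene not selected in this way. At 2 h against untreated kidneys 1 of the 3 passed, lower, beside 9.8% of all, 4.82% higher and 4.98% lower. With the sample number as a block 0 of 3 passed. At 6 h 0 of the 3 passed, beside 2.35% of all and 1.56% higher. At 6 h against 2 h 0 of the 3 passed, beside 1.43% of all, and unadjusted 0 of 3, beside 16.5% of all.

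**Figure D4:**
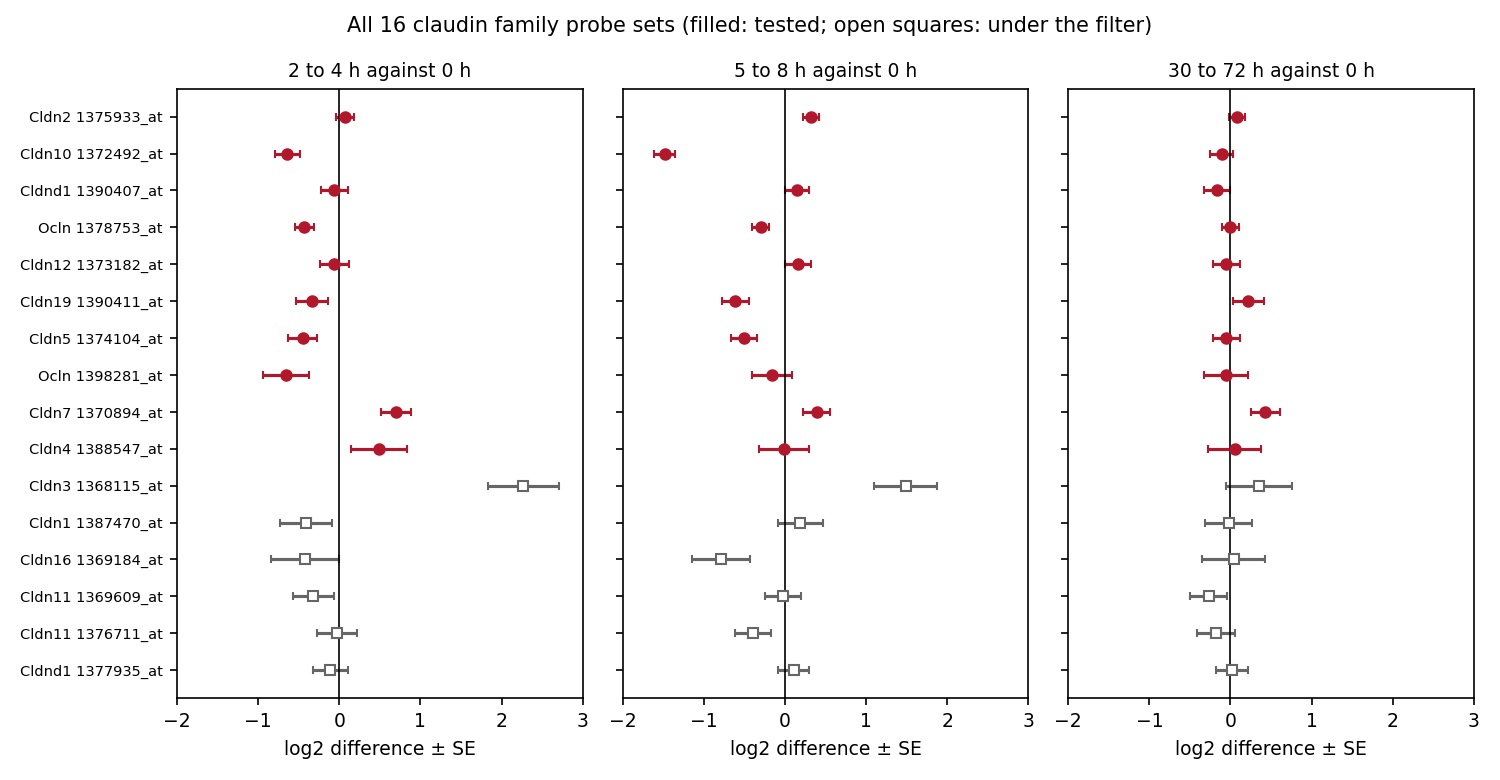
Differences from untreated kidneys (horizontal axes, log2 scale, bars are ± 1 standard error) of all 16 family probe sets of the main array type, ordered by mean signal, at 2 to 4 h, 5 to 8 h and 30 to 72 h. Filled points passed the floor and open squares did not: Cldn10 is at -1.48 at 5 to 8 h and -0.11 at 30 to 72 h, and Cldn3 is at 2.27 at 2 to 4 h.

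Claudins are anchored by partner proteins at the tight junction. Of 32 on a list 18 were on the main array and 15 were tested. None passed at 2 to 4 h against untreated kidneys, beside 9.97% of all probe sets tested. At 5 to 8 h 1 fell and 1 rose, beside 4.73% and 4.98% of all: Cgnl1, the junction scaffold paracingulin, fell by 0.59 ± 0.11 on the log2 scale (limma, adjusted p = 9.58e-05) and Vapa, a membrane protein known to bind occludin, rose by 0.28 ± 0.08 (adjusted p = 0.0149). The median of the 15 was 0.02, beside -0.03 for all probe sets tested. Of the 15, at 30 to 72 h against 5 to 8 h 2 rose (Cgnl1 by 0.53 and Rab13, a junction traffic protein, by 0.44) and 3 fell (Amot, Afdn and Vapa), beside 13.8% and 12.5% of all. On the second type 1 of 7 fell at 2 h, Tjp1, the scaffold that claudins bind, by 1.08 ± 0.30 (adjusted p = 0.0407), and 0 rose, beside 4.98% and 4.82% of all. The call of Tjp1 was not examined with the sample number as a block or without single libraries.

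Of 15 genes of the adherens junction and desmosome 12 were tested, and at 2 to 4 h 1 fell, Jup, which encodes plakoglobin, by 0.60 ± 0.14 (limma, adjusted p = 0.00292), and 0 rose, beside 4.8% and 5.17% of all probe sets tested. At 5 to 8 h 0 passed, beside 9.71% of all. Later, at 30 to 72 h against 5 to 8 h, 3 of the 12 rose (Cdh1, Cdh16 and Epcam, by 0.57, 0.40 and 0.22) and 3 fell (Ctnna1, Dsp and Pkp2), beside 13.8% and 12.5% of all. Of 19 genes known to regulate claudins or their junctions 11 were tested. Of the 11, 3 fell at 2 to 4 h and 0 rose, beside 4.8% and 5.17% of all: Prss8, a membrane-anchored serine protease, by 1.12 ± 0.19 (adjusted p = 7.27e-05), Casr, the calcium-sensing receptor of the thick ascending limb, by 1.10 ± 0.35 (adjusted p = 0.0356), and Snai1, a repressor of junction genes, by 0.53 ± 0.15 (adjusted p = 0.0209). For 5 to 8 h 2 fell and 0 rose, beside 4.73% and 4.98% of all: Prss8 differed by -0.84 ± 0.17 (adjusted p = 0.000546) and Casr by -0.96 ± 0.30 (adjusted p = 0.0349). Between 30 to 72 h and 5 to 8 h 3 of the 11 rose and 2 fell, beside 13.8% and 12.5% of all. Prss8 rose by 0.95 ± 0.13 (adjusted p = 1.81e-07), Casr by 0.92 ± 0.23 (adjusted p = 0.00212) and Spint2, a protease inhibitor, by 0.29 ± 0.07 (adjusted p = 0.00319). Egfr, the receptor of epidermal growth factor, fell by 1.06 ± 0.31 (adjusted p = 0.0109) and Cul3, a ubiquitin ligase scaffold, by 0.25 ± 0.05 (adjusted p = 0.000317).

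The course of Cldn10 over the 17 time means was set beside that of 8059 other tested probe sets with 1 symbol, as a description. The highest correlations were those of Prlr, the prolactin receptor (r = 0.952), Kif12, a kinesin (0.943), C1qtnf3, a secreted protein (0.943), Zfp704 (0.941), Pllp, a membrane protein known from myelin (0.937), and Ppox, an enzyme of heme synthesis (0.937). Prlr had a mean signal of 135 at 6 h, against 762 in untreated kidneys, and 825 at 30 h. The most opposed were Wdr1, an actin-disassembly factor (-0.957), both probe sets of Por, the electron donor of microsomal cytochromes (-0.949 and -0.946), and Fhl1 (-0.946). All these values come from the same libraries. Within the family the correlation with Cldn10 was 0.82 for Cldn19, 0.77 for Cldn5, 0.68 for the brighter Ocln probe set and 0.62 for Cldn16, and it was -0.53 for Cldn2 and -0.67 for Cldn3, each over 17 times.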

How the data were processed

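Per the labels, total RNA of rat kidney was hybridised to Affymetrix arrays, 53 of a main type and 10 of a second. The deposited values are intensities on a linear scale. The authors had scaled the arrays to a common mean: means trimmed by 2% at each end were 150.03 to 150.04 on the main type and 150.19 to 150.23 on the second. The sources used here give neither the algorithm behind them nor detection calls. For arrays, their number limits the precision.

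Values were taken as log2(intensity + pseudocount), the pseudocount being the 10th percentile of the table (7.63 and 3.56). Control probe sets were removed, and tests covered probe sets whose mean log2 level reached the 40th percentile. Arrays a and b of 5 h replicate 1 were averaged, which left 52 libraries. No columns were identical. Tests used limma 3.58.1 in R 4.3.3 (empirical Bayes with a mean-variance trend, Benjamini-Hochberg at 0.05), with all times of an array type in 1 fit and 5 windows as means of their times. Scripts were tested on simulated data. Symbols are those of the platform annotation, updated with RefSeq names of GRCr8, and promoter sequences are RefSeq's.

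The rule for named genes took every probe set with 1 symbol starting with Cldn, plus Ocln, members of 15 gene lists past the threshold, and the 6 most alike and 4 most opposed probe sets to Cldn10. Members and lists were chosen with earlier results of these data known. Sample numbers recur across times. On the second type same-numbered libraries deviated together from their time means (lowest r = 0.14, median 0.241, against -0.080 for other numbers). A value with the number as a block therefore stands beside the Ocln call that the block ended on this type. The block also ended calls of Cldn3 and Cldn7 on both array types. Their differences from untreated kidneys are given with no test, and no block value stands beside them. On the main type the correlation of same-numbered libraries was lower (lowest r = -0.53, median 0.057, against -0.025 for other numbers). Alternatives covered pseudocount, filter, normalization, array weights, moderation, block, single libraries, the libraries in the fit and arrays of letter b or c. They were run for the family probe sets and not for the genes of the lists.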

Additional observations from a re-analysis of the deposited data

Results flagged for a closer look

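In untreated kidneys, replicate 4 had a Cldn5 signal of 104, against 126 to 130 in the other 3 untreated libraries. Its gap to the nearest library was 0.867 of the range of the group, above Dixon's limit for a group of 4 samples. Of the 23 groups of 4 or more samples that were examined this was the only one, and chance marks about 1 in 20 such groups. Leaving this library out kept the fall of Cldn5 at 5 to 8 h past the threshold.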

How the results depend on the processing

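None of the 1403 values of 25 single-probe-set results under an alternative changed sign, and 78 lost the threshold. The counts below are over all family probe sets in the fit, those of Cldn10, Cldn3 and Cldn7 included, and describe only how the fit moves. At 2 to 4 h against 0.25 to 1 h (3), quantile normalization and median centring each gave 5 and array weights 7. By the F test (3), array weights gave 9, and 7 passed without the 6 libraries of high Fga signal, a choice made after seeing the data. At 30 to 72 h against 5 to 8 h (6), 3 passed without arrays that carry the letter b or c in their titles. On the second type at 2 h (3), 1 passed with no filter, with a filter at the 60th percentile, with the replicate block and with the contrasted times alone. At 6 h (1), 0 passed with 4 times the pseudocount, no filter, the 60th percentile or the replicate block, and 2 with array weights or the contrasted times alone. The cause was not tested. On the main type the replicate block gave 2 calls at 2 to 4 h against 0 h. It pairs libraries by a sample number whose meaning the labels do not give. Of the 52 libraries 27 were closest to those of their own number.

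Leaving out single libraries gave 3 to 6 calls for the F test (the most without 7 h replicate 3), 1 to 4 at 2 to 4 h against 0 h (moved by 0 h replicate 3 or 4), and 2 to 5 against 0.25 to 1 h (moved by 0.5 h replicate 3). It gave 1 to 5 at 5 to 8 h against 0 h (moved by 0 h replicate 1, 2 or 3), 5 to 7 at 30 to 72 h against 5 to 8 h, 1 to 4 at 2 h and 0 to 2 at 6 h on the second type, and 0 for the other counts. Cldn3, Cldn16 and Cldn1 lie under the signal floor of the main type, and small differences may not be detectable there.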
